A study of Homo sapiens with 4 samples.

Results

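The subunits and inhibitors of the transcription factor NFκB were followed in Caco-2 cells, a human colorectal adenocarcinoma line used as a model of intestinal epithelium, after exposure to interferon γ (IFNγ). The 10 genes were given by name, with no threshold on their values: the Rel subunits NFKB1, NFKB2, REL, RELA and RELB, the IκB inhibitors NFKBIA, NFKBIB and NFKBIE, the IκB-like gene BCL3 and the deubiquitinase gene TNFAIP3. They were chosen with earlier results of these data known, so counts of them set beside all genes are descriptions. All 10 had a row among the 37515 genes of the count table. All 10 also passed the filter on low counts that left 14820 genes to test. RNA was sequenced from 2 libraries of unstimulated cells taken at 0 h and 2 libraries of cells given 60 ng/ml IFNγ for 3 h, from cells grown on transwell inserts and labelled wild type (WT) in every library. No library of unstimulated cells kept for 3 h was analysed here, so IFNγ and the elapsed time cannot be told apart. The labels do not say that the duplicates were separate cultures, so p-values measure the spread between these libraries, which may be technical.

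NFκB is a dimer of Rel proteins that is held inactive in the cytoplasm by IκB proteins. In the canonical branch, receptors for cytokines and microbial products activate the IκB kinase (IKK) complex, IκB is degraded and dimers such as those of RELA enter the nucleus. In the non-canonical branch, the kinase encoded by MAP3K14 drives processing of the NFKB2 product, which pairs mainly with RELB. Several NFκB genes, the inhibitors among them, are themselves targets of NFκB, which is a textbook negative feedback.

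The libraries held 7171455 to 10365346 counts, so that 1 CPM (counts scaled to library size, with TMM factors) stood for 7.14 to 10.3 reads. Of 8 IFNγ-induced genes listed as a check of the labels, 7 were called higher with IFNγ, and the exception SOCS1 had an adjusted p of 0.0597 (edgeR quasi-likelihood test, Benjamini-Hochberg adjustment). All 12 epithelial markers had at least 10 counts in a library, with summed levels of 10030 to 10790 CPM in unstimulated and 11370 to 12020 CPM in IFNγ libraries. Of 8 haematopoietic markers only 2 reached 10 counts and FCGR3A was at 0 in every library, with sums of 4.77 to 5.46 CPM without and 7.88 to 10.1 CPM with IFNγ. Of 6 measured fibroblast and endothelial markers 3 reached 10 counts, with sums of 98.8 to 193 CPM without and 129 to 175 CPM with IFNγ. PTPRC, CD3D, CD68, CD79A and MS4A1 had at most 6 counts in any library, and COL1A2, DCN and CDH5 at most 2. The haematopoietic markers that reached 10 counts were CD3E and CD14. The 3 fibroblast and endothelial markers that did so were among COL1A1, COL3A1, PECAM1 and VWF. Whether any such cells were present was not tested.

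Promoter windows of 300 bases, from 250 before to 50 after a transcription start, were read from RefSeq (GRCh38.p14) for 8 of the 10 genes, in 13 windows. The window table has no entry for RELB and NFKBIE. Letters matching the κB consensus, the decamer that NFκB binds, were present on either strand in 8 windows of 7 genes, beside 5.91% of all 35116 RefSeq windows. They are shown because several of these genes are known NFκB targets, with 30 bases per gene, the strand of the gene, and the κB letters in capitals. A match is a string of letters and not a measured binding site.
NFKB1, chr4:102501300-102501329, plus strand: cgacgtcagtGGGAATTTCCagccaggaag
NFKB2, chr10:102394462-102394491, plus strand: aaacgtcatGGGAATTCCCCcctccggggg
REL, chr2:60881518-60881547, plus strand: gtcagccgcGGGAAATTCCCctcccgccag
NFKBIA, chr14:35404811-35404840, minus strand: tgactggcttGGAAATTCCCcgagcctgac
NFKBIB, chr19:38899932-38899961, plus strand: ggcgtggtgGGGAATTTCCCgcagggcgga
BCL3, chr19:44748700-44748729, plus strand: ccggctgcagGGGAAGTCCCggcgcccggc
TNFAIP3, chr6:137867188-137867217, plus strand: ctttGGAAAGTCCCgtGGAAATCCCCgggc
In the runs of NFKB2, REL and NFKBIB a pair of matches overlaps by all but 1 base, and TNFAIP3 has a pair of separate matches. NFKB2 held 3 matches in the window shown and 2 in a further window. The match of BCL3 began 2 bases past the start, and that of NFKBIA 81 bases before it.

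RELA had no κB match in either of its windows. Of the 8 genes with windows, it was the only one with a match to TTCNNNGAA, the palindrome bound by STAT factors (7.66% of all windows on either strand). It alone also matched the core of the interferon response element, a pair of GAAA tetramers spaced by 2 bases (3.57% of all windows). Both lay in the upstream of the 2 RELA windows, 106 and 237 bases before the start of that window's transcript. The other RELA window had neither. With 1 of the 13 windows matching, the count for TTCNNNGAA is about the share of all windows. Neither match is read as a trait of RELA, and RELB and NFKBIE had no window. The motifs did not overlap each other in any of the 13 windows. These RELA stretches are shown with the matching letters in capitals, on the minus strand.
RELA, chr11:65663944-65663973: ttaagacgaaTTCAGAGAAaataaaaaagt
RELA, chr11:65664075-65664104: agccactggaGAAACTGAAAtgagtgggcg

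With IFNγ, RELB, RELA and BCL3 rose and TNFAIP3 fell, while the other 6 genes did not pass the test. RELB and BCL3 rose by more than 2-fold, whereas RELA rose and TNFAIP3 fell by less than that. After removal of a trend with GC content and length, described with the base composition, RELB was at 0.99 and BCL3 at 0.76 on the log2 scale, and 0 of the 10 passed the fold limit. A test against that limit itself (glmTreat of edgeR) also called 0. Calls needed an adjusted p under 0.05 and a log2 fold change past 1 in either direction. By both limits 2 of the 10 were higher, beside 2.88% of all genes tested, and 0 lower, beside 4.40% (7.28% together). Without the fold limit 3 of 10 were higher, beside 9.02%, and 1 of 10 lower, beside 11.0% (20.0% together). DESeq2 called the same numbers under both rules. On the log2 scale the 10 genes had a median change of 0.22, beside -0.0073 over all genes tested. With the GC and length trend removed by longest transcript it was 0.15, beside 0.012 over all genes. By canonical transcript it was 0.081, beside 0.022. In these bulk libraries a change in RNA per cell and a change in the number of cells carrying it cannot be told apart.

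**Figure D1:**
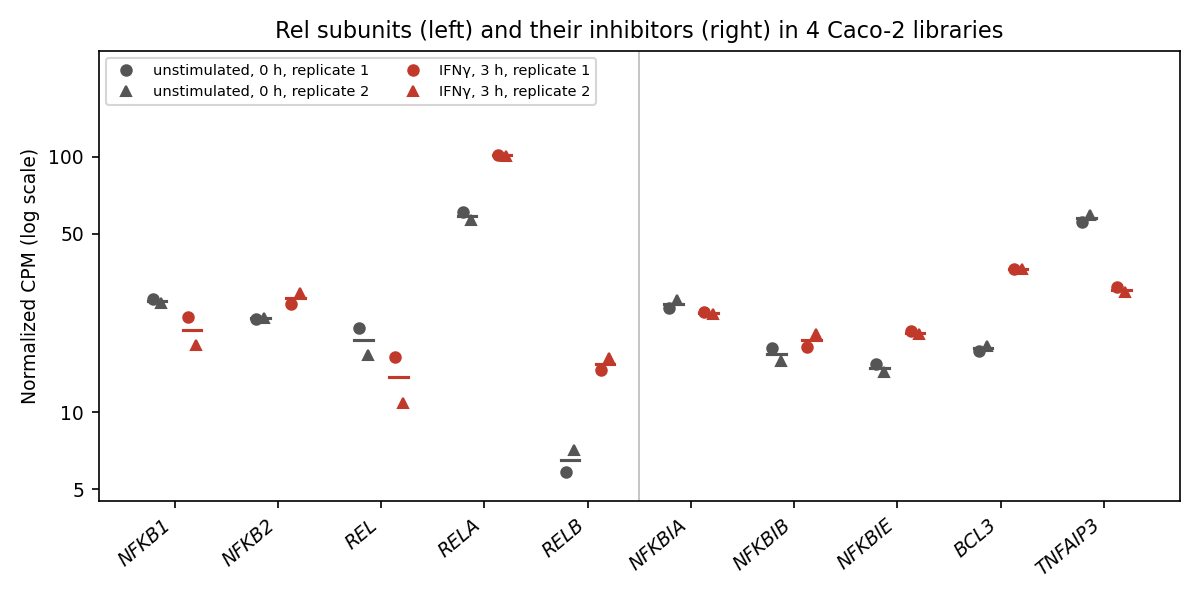
Normalized CPM on a log axis for the 10 genes, with circles and triangles for replicates 1 and 2, grey for unstimulated cells at 0 h, red for IFNγ at 3 h, and bars at the mean of 2. RELB, RELA and BCL3 stand higher and TNFAIP3 lower with IFNγ, with each pair of replicates closer together than the conditions, while REL spreads from 21.4 to 10.9 CPM.

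RELA, on chromosome 11 (65421070 to 65430561, minus strand, GRCh37), encodes the main transactivating subunit of the canonical branch. It gave 60.9 and 56.6 CPM in the unstimulated libraries and 102 and 100.3 CPM in the IFNγ libraries, so both treated libraries lay well above both controls. Means were 58.7 ± 3.01 and 101 ± 1.24 CPM (SD, n = 2 each), a log2 fold change of 0.78 with a standard error of 0.117 and an adjusted p of 0.00523 (edgeR quasi-likelihood test with Benjamini-Hochberg adjustment). This placed RELA at percentile 93.7 of the log2 fold changes of all genes tested. Its exons share 103 bases, or 1.89% of their length, with RELA-DT on the opposite strand.

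RELB, on chromosome 19 (45504719 to 45541450, plus strand), encodes the subunit that partners the processed NFKB2 product. Its levels were 5.84 and 7.15 CPM without and 14.6 and 16.4 CPM with IFNγ, from 60, 51, 150 and 120 counts in that order. The lowest treated library was thus above the highest control. RELB had the highest log2 fold change of the 10 genes, 1.26 with a standard error of 0.209 (95% interval 0.77 to 1.75, adjusted p 0.00721 in edgeR's quasi-likelihood test).

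NFKB2, on chromosome 10 (104153867 to 104162281, plus strand), encodes the precursor that is processed in the non-canonical branch. Its values were 23.2 and 23.4 CPM without and 26.6 and 29.2 CPM with IFNγ. The conditions did not overlap, but the log2 fold change of 0.26 had a 95% interval from -0.08 to 0.60, with an adjusted p of 0.253 in edgeR. The partner genes of the non-canonical dimer thus differed in their calls, although the difference between them was not tested.

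NFKB1, on chromosome 4 (103422487 to 103538459, plus strand), encodes the precursor of the usual DNA-binding partner of RELA. Its values were 27.8 and 26.8 CPM without and 23.6 and 18.3 CPM with IFNγ. The treated replicates differed from each other more than the upper of them differed from the controls, and the log2 fold change of -0.37 had a 95% interval from -0.78 to 0.03 (adjusted p 0.17, edgeR).

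REL, on chromosome 2 (61108626 to 61158747, plus strand), encodes c-Rel, best known from lymphocytes. Its values of 21.4 and 16.8 CPM without and 16.4 and 10.9 CPM with IFNγ left a gap of under 1 CPM between the lowest control and the highest treated library. The log2 fold change was -0.48 with a standard error of 0.236 and an adjusted p of 0.196 (edgeR). Without replicate 1 of IFNγ the value was -0.83, and without replicate 2 of IFNγ it was -0.25. Without replicate 1 or 2 of the unstimulated cells it was -0.29 or -0.62. A long non-coding RNA gene on the same strand shares 33.3% of the exon length of REL, so reads there cannot be assigned with certainty.

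Among the inhibitors, NFKBIA, NFKBIB and NFKBIE encode IκBα, IκBβ and IκBε, which mask the nuclear localization signals of Rel dimers. NFKBIA, on chromosome 14 (35870285 to 35873955, minus strand) and the classic early target of NFκB, gave 25.5 and 27.5 CPM without and 24.6 and 24.2 CPM with IFNγ. Its log2 fold change was -0.12, with a 95% interval from -0.46 to 0.22 and an adjusted p of 0.606 (edgeR), so that a rise above 0.22 lay outside the interval. Both IFNγ libraries lay below both controls.

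NFKBIB, on chromosome 19 (39390340 to 39399533, plus strand), gave 17.8 and 15.8 CPM without and 18.0 and 20.3 CPM with IFNγ, a log2 fold change of 0.18 (95% interval -0.21 to 0.57, adjusted p 0.486, edgeR). The conditions all but touched. It shares 40 exonic bases, or 1.72% of its length, with SIRT2 on the other strand. NFKBIE, on chromosome 6 (44225903 to 44233525, minus strand), gave 15.4 and 14.4 CPM without and 20.8 and 20.2 CPM with IFNγ. The treated replicates lay close together and above the controls, with a log2 fold change of 0.46 (95% interval 0.09 to 0.83), yet the adjusted p was 0.0811 in edgeR's test.

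BCL3, on chromosome 19 (45250962 to 45263301, plus strand), encodes a nuclear IκB-like protein that joins dimers of the NFKB1 and NFKB2 products as a cofactor. Its values were 17.4 and 18.2 CPM without and 36.5 and 36.4 CPM with IFNγ, and the treated replicates differed by less than the controls did. The log2 fold change was 1.03 with a standard error of 0.142 and an adjusted p of 0.00412 (edgeR). That value sat just above the fold limit, and without replicate 1 of the unstimulated cells it was 0.998, just under it, which left RELB as the only gene called by both limits.

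TNFAIP3, on chromosome 6 (138188351 to 138204451, plus strand), encodes a ubiquitin-editing enzyme that shuts off signalling upstream of IKK and, like NFKBIA, is a textbook NFκB target. It gave 55.7 and 59.4 CPM without and 30.8 and 29.5 CPM with IFNγ, so both treated libraries lay far below both controls. The log2 fold change was -0.93 with a standard error of 0.131 (95% interval -1.24 to -0.62, adjusted p 0.00437, edgeR), at percentile 8.0 of all genes tested. TNFAIP3 was the only one of the 10 that fell at an adjusted p under 0.05. Its exons share 95 bases, or 1.47%, with WAKMAR2 on the opposite strand.

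In none of the 10 did the ranges of the conditions overlap, with 6 higher and 4 lower with IFNγ. Among all genes tested 31.6% were higher and 30.8% lower without overlap, 62.4% together, since with 2 libraries per condition this happens often. This count is therefore not read as a call.

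**Figure D2:**
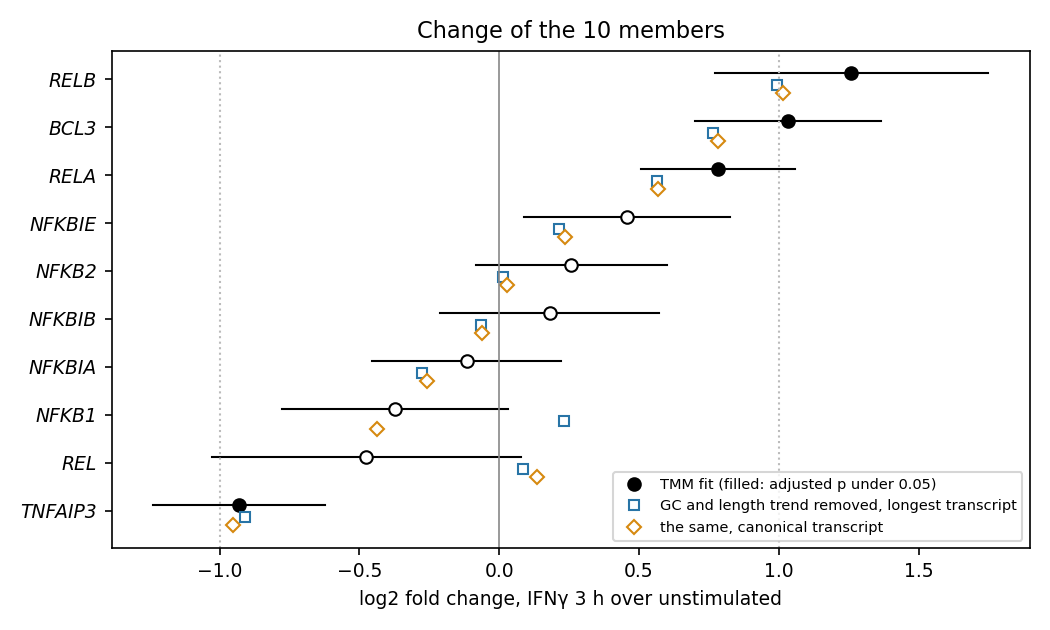
The log2 fold change (IFNγ at 3 h over unstimulated) of the 10 genes in the TMM fit (circles with 95% intervals, filled where the adjusted p was under 0.05) and after removal of a trend with GC content and length, by longest (squares) or canonical (diamonds) transcript. The 4 filled genes keep their direction in all 3 fits, while NFKB1, REL and NFKBIB cross 0 in at least 1.

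The log2 fold changes of all genes moved with base composition. Across the 14518 tested genes with a GC value, Spearman's rho between log2 fold change and GC content of the longest transcript was 0.431, a description over genes that share the same 4 libraries. Among the 10 members it was 0.855. Of the 10, 7 lay above the median GC content of tested genes, 47.9%. By canonical transcript 9 lay above the median, 48.5%. BCL3 (66.4%) and RELB (64.9%) had the highest GC content of the 10 and the highest log2 fold changes, and REL (38.7%) was among the lowest in both.

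After removal of the GC and length trend from each library, RELA, RELB and BCL3 were still higher and TNFAIP3 still lower at an adjusted p under 0.05. The log2 fold change was 0.57 for RELA (adjusted p 0.0122), 0.99 for RELB (0.0154), 0.76 for BCL3 (0.00910) and -0.91 for TNFAIP3 (0.00315), all from edgeR's quasi-likelihood test. TNFAIP3 was thus nearly unmoved, and neither RELB nor BCL3 passed the fold limit. With the GC content of the canonical transcript instead, RELB stood at 1.01 and passed it. Over all genes the calls became 408 higher and 316 lower, in place of 427 and 652.

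Some genes that had not passed the test changed direction. REL went from -0.48 to 0.09 with longest and 0.13 with canonical transcripts, and NFKBIB from 0.18 to -0.06 with either. NFKBIE went to 0.21 (adjusted p 0.385) and NFKB2 to 0.01. NFKB1 took 0.23 with the longest transcript, which has a GC content of 36.0%, and -0.44 with the canonical one, at 50.1%. No direction is therefore given for NFKB1, REL and NFKBIB.

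Levels of different genes were compared as CPM per kilobase of merged exon length (RPKM). In unstimulated cells RELA was highest with 10.8 ± 0.552 RPKM (SD, n = 2), followed by TNFAIP3 at 8.93 ± 0.407, NFKBIA at 7.80 ± 0.406 and NFKBIB at 7.24 ± 0.605. The libraries of NFKBIA and NFKBIB overlapped, so their order is not set, and the same held for NFKBIE (5.78) and BCL3 (5.76). Below them came NFKB2 (4.17), RELB (2.17), NFKB1 (1.74) and REL (1.12). Lengths matter here. With the canonical transcript, NFKB1 stood at 6.72 RPKM, above NFKBIE and RELB, because its merged exons span 15679 bases and that transcript 4055.

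With IFNγ, RELA stayed first at 18.5 ± 0.226 RPKM, and BCL3 came next with 11.8 ± 0.0103, by each of the 3 lengths tried (merged exons, longest and canonical transcript). TNFAIP3 stood in the eighth place by each of them, with 4.68 ± 0.149 RPKM by merged exons, where its libraries overlapped those of NFKB2 (4.99), which in turn overlapped RELB (5.17). NFKBIB (8.25) and NFKBIE (7.94) overlapped as well, and NFKBIA stood at 7.18. NFKB1 (1.34) and REL (0.798) were the lowest, again by each length, whereas in unstimulated cells RELB and REL were the lowest by longest and canonical transcript.

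**Figure D3:**
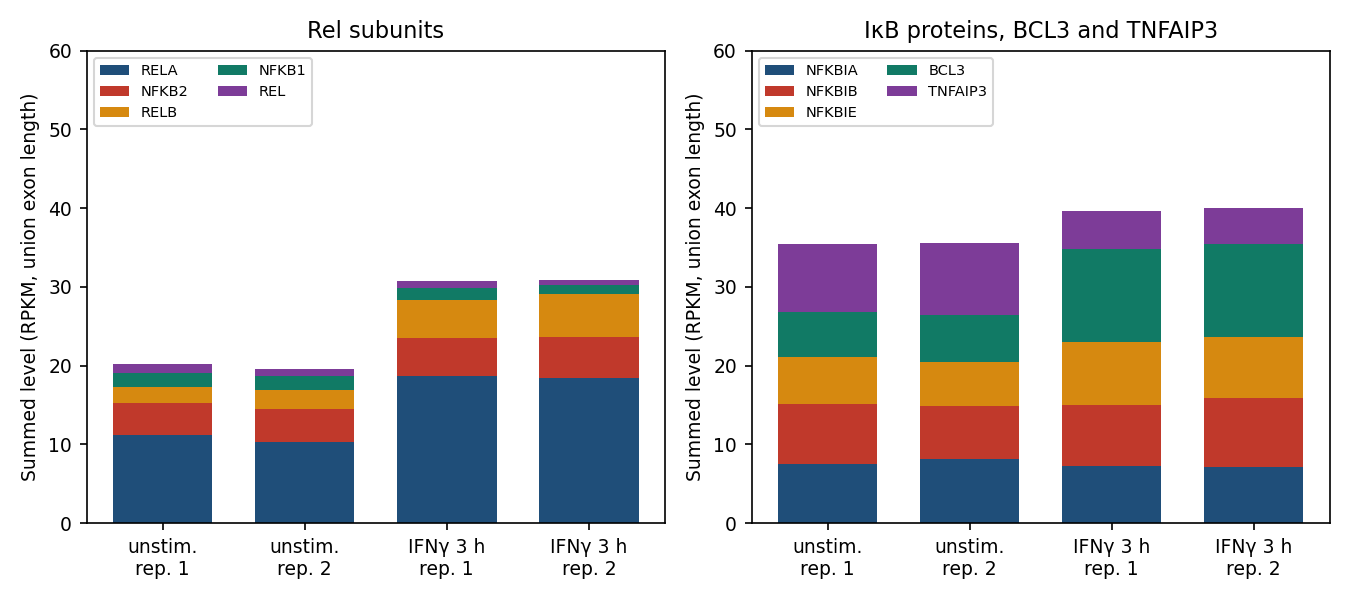
Stacked bars of RPKM by merged exon length in each of the 4 libraries, for the Rel subunits (left) and for the inhibitors with BCL3 and TNFAIP3 (right). The Rel sum goes from 19.6 to 20.3 RPKM without IFNγ to 30.8 to 30.9 RPKM with it, mainly through RELA (blue), while BCL3 (green) widens and TNFAIP3 (purple) narrows on the right.

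The summed level of the Rel subunits was 20.3 and 19.6 RPKM in unstimulated cells and 30.8 and 30.9 RPKM with IFNγ. RELA made up 55.0 and 52.8% of it without and 60.7 and 59.5% with IFNγ, and RELB 9.62 and 12.1% against 15.8 and 17.7%. The share of NFKB1 was 8.73 and 8.69% against 4.90 and 3.78%. The shares of RELA and RELB were higher in both IFNγ libraries by each of the 3 lengths. Their size depends on the length, with NFKB1 at 15.8 and 15.9% in unstimulated cells by canonical transcript. The GC trend was not removed here, so the lower share of NFKB1 is not read as a fall of NFKB1.

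By merged exons, the summed level of IκBα, IκBβ and IκBε transcripts was 21.1 and 20.5 RPKM without and 23.1 and 23.7 RPKM with IFNγ. Whether this sum lay above or below the Rel sum in unstimulated cells depended on the length. By longest transcript it was 24.0 and 23.5 RPKM without IFNγ, beside 34.35 and 33.1 RPKM for the Rel subunits. NFKBIA stood at 0.674 and 0.780 RPKM per RPKM of RELA in unstimulated cells, and at 0.388 and 0.387 with IFNγ. For TNFAIP3 the ratio to RELA was 0.775 and 0.889 without and 0.256 and 0.249 with IFNγ. By canonical transcript this ratio was 0.494 and 0.566 without and 0.163 and 0.159 with IFNγ, so its size depends on the length. These ratios are descriptions with no test, and in each of them the IFNγ libraries lay apart from the controls.

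The rest of the pathway was described with lists of receptors, adaptors, kinases, negative regulators and targets. These lists too were chosen with earlier results of these data known. Of 98 genes, 94 were paired with a row by symbol and 69 were tested. Of these, 10 were called higher and 2 lower by both limits, beside 2.88% and 4.40% of all tested genes, and 18 were higher and 9 lower at an adjusted p under 0.05 alone, beside 9.02% and 11.0%. Their median log2 fold change was 0.26. After the GC and length trend was removed, 22 were higher and 3 lower at that limit, with 17 and 3 of them shared with the calls before removal. IKBKG, IKBKE, OTUD7B and SOD2 were not paired with a row by symbol and were not analysed here. This does not show that the count table lacks them.

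**Figure D4:**
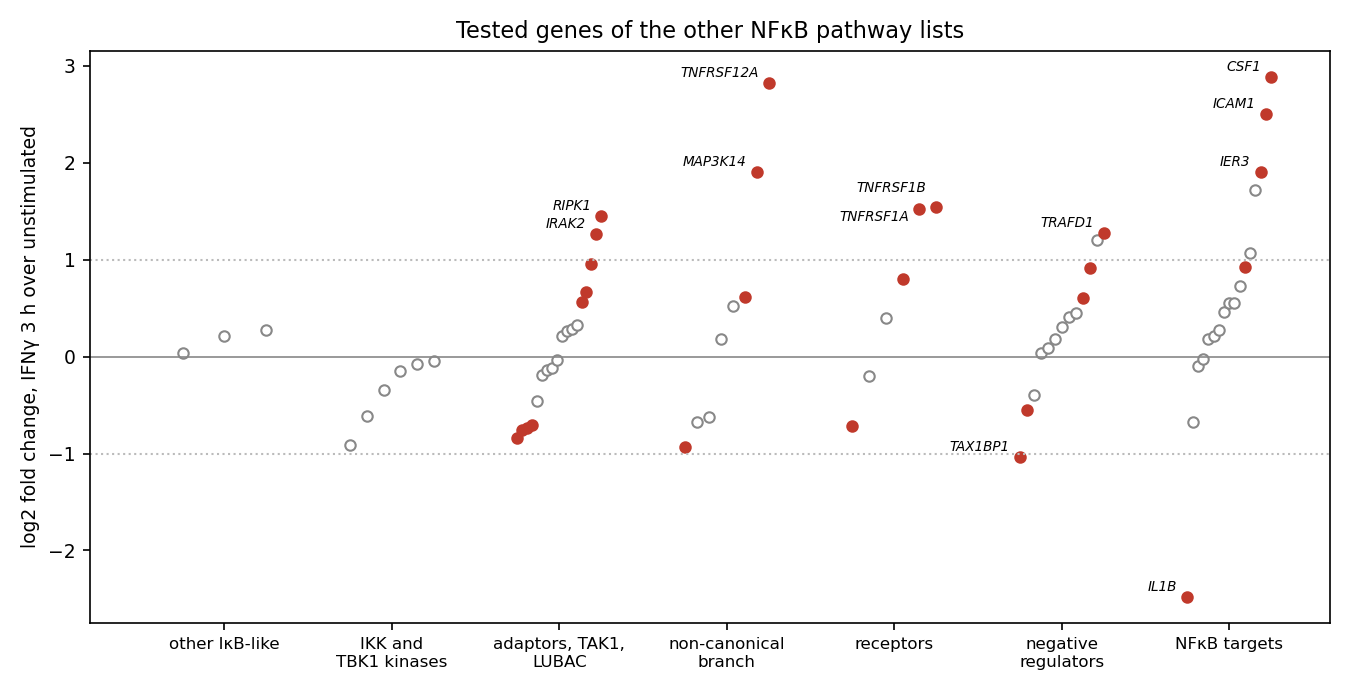
The log2 fold change (IFNγ at 3 h over unstimulated) of the tested genes of each NFκB pathway list, filled red where the adjusted p was under 0.05, with dotted lines at the fold limit and names for genes past both limits. The highest values are in the non-canonical branch and among the targets, and no gene of the IκB-like or kinase lists is filled.

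Of the receptors 6 of 11 were tested. At an adjusted p under 0.05, 3 rose and 1 fell, beside 9.02% and 11.0% of all genes tested. TNFRSF1A, the main TNF receptor, went from 87.2 and 96.1 CPM to 255 and 272 CPM (log2 fold change 1.52), and TNFRSF1B, the second TNF receptor, from 12.1 and 14.4 CPM to 36.9 and 40.1 CPM (1.54). Both TNF receptor genes were thus well above the controls in both IFNγ libraries. The other 2 are named after their values were seen: NOD1, a sensor of bacterial peptidoglycan, rose by 0.80 and IL1RAP, the accessory chain of the interleukin 1 receptor, fell by 0.71 on the log2 scale. IL1RAP did not pass the test after removal of the GC trend (adjusted p 0.119, edgeR). TLR2, named after its values were seen, had 0.40 before removal (adjusted p 0.0859, edgeR). It passed after removal, with 0.76 by longest (0.00964) and 0.72 by canonical transcript (0.0122).

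Of the 18 tested adaptors and kinases of the TAK1 and LUBAC steps, 5 rose and 4 fell at an adjusted p under 0.05. The shares over all genes tested were 9.02% and 11.0%. RIPK1, the kinase recruited to the TNF receptor, went from 38.2 and 37.3 CPM to 100.5 and 106 CPM (log2 fold change 1.45, adjusted p 0.000953, edgeR). IRAK2, a kinase of the Toll-like receptor branch, had 5.65 and 8.27 CPM without and 15.5 and 17.7 CPM with IFNγ (1.27). Named after their values were seen, the others that rose were MYD88 (0.96), CARD10 (0.67) and RNF31 (0.56), and those that fell were MALT1 (-0.84), MAP3K7 (-0.75), TAB2 (-0.73) and IRAK4 (-0.71). After removal of the GC trend by longest transcript, none of the 4 that fell passed the test, with adjusted p of 0.0598 to 0.114 in edgeR, and RNF31 did not either (0.133). By canonical transcript TAB2 still fell, by 0.50 (adjusted p 0.0227), and the other 3 did not pass. RNF31 shares 51.5% of its exon length with another gene on the same strand and 3.22% with PSME2 on the opposite strand, so its reads cannot be assigned with certainty.

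None of the 6 tested genes of the IKK and TBK1 kinase list passed an adjusted p of 0.05 in edgeR, beside 20.0% of all genes. However, 2 were lower at an unadjusted p under 0.05 and DESeq2 called 1 lower. All 6 values lay below 0, with a median of -0.24, but not after removal of the GC trend. CHUK and IKBKB, the catalytic IKK subunits, stood at -0.04 and -0.08, and after removal by longest transcript at 0.49 (adjusted p 0.0647, edgeR) and -0.14 (0.742). Likewise 0 of the 3 other IκB-like genes passed, by edgeR, by unadjusted p or by DESeq2, and NFKBIZ, an inducible IκB-like gene, had a value of 0.21.

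In the non-canonical branch 8 of 9 genes were tested. At an adjusted p under 0.05, 3 rose and 1 fell, beside 9.02% and 11.0% of all genes tested. TNFRSF12A, the receptor for TWEAK, had 6.82 and 7.71 CPM without and 43.8 and 59.1 CPM with IFNγ (log2 fold change 2.83, standard error 0.206, adjusted p 0.000629, edgeR). MAP3K14, the kinase NIK that starts the branch, had 12.2 and 11.5 CPM without and 41.8 and 47.2 CPM with IFNγ (1.91, adjusted p 0.000894), and 15.1% of its exon length is shared with MAP3K14-AS1 on the opposite strand. LTBR, the lymphotoxin β receptor, rose by 0.61 and BIRC2, a ubiquitin ligase that marks NIK for degradation, fell by 0.93 on the log2 scale. After removal of the GC trend LTBR and BIRC2 passed by longest transcript (adjusted p 0.0380 and 0.0406, edgeR) and did not by canonical transcript (0.0565 and 0.0653). Together with RELB, the genes of this branch that rose were a pair of receptors and a kinase, whereas NFKB2 did not pass the test.

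Among negative regulators other than the members, 13 of 16 genes were tested. At an adjusted p under 0.05, 3 rose and 2 fell, beside 9.02% and 11.0% of all genes tested. TRAFD1, a brake on Toll-like receptor signalling, went from 33.2 and 33.6 CPM to 82.0 and 80.0 CPM (1.28). ZC3H12A, an RNase that degrades cytokine transcripts, rose by 0.91 and PDLIM2, a ligase for nuclear RELA, rose by 0.61 on the log2 scale. TAX1BP1 and ITCH, which act with the TNFAIP3 protein in its ubiquitin-editing complex, fell by 1.03 and by 0.55, from 186 and 214 CPM to 111 and 83.9 CPM for TAX1BP1. By the GC trend of canonical transcripts TAX1BP1 stood at -0.57 (adjusted p 0.0235, edgeR) and PDLIM2 had an adjusted p of 0.0636, whereas by longest transcript TAX1BP1 (-1.07, 0.00345) and PDLIM2 (0.47, 0.0231) passed and ITCH stood at -0.10 (0.556). Removal also added calls, named after their values were seen. By longest transcript these were the deubiquitinase genes CYLD (0.86, adjusted p 0.00778, edgeR) and OTULIN (0.45, 0.0395) and the interferon-inducible USP18 (1.34, 0.0330), and by canonical transcript USP18 did not pass (0.0652).

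Of 34 listed NFκB targets, 17 were tested. At an adjusted p under 0.05, 4 rose and 1 fell, beside 9.02% and 11.0% of all genes tested. ICAM1, an adhesion molecule for leukocytes, went from 33.1 and 35.0 CPM to 195 and 192 CPM (2.51, adjusted p 0.000114, edgeR). IER3, an early response gene, had 5.65 and 7.99 CPM without and 23.4 and 27.0 CPM with IFNγ (1.90), and 32.6% of its exon length is shared with IER3-AS1, as is 23.6% of that of ICAM1 with ICAM4-AS1. CSF1, the macrophage growth factor, went from 7 and 3 counts to 40 and 35, and IL32, named after its value was seen, rose by 0.93 on the log2 scale. IL1B fell, from 12 and 11 counts to 2 and 2, a ratio of 0.172 with an exact 95% interval for counting error of 0.0432 to 0.503. PTGS2, named after its values were seen, had 0.55 before removal of the GC trend (adjusted p 0.176, edgeR). It passed after removal, with 0.99 by longest (0.0345) and 1.10 by canonical transcript (0.0255).

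Many cytokine targets were at the edge of detection. IL6 and VCAM1 had 0 counts in all 4 libraries, TNF had 1 count in 1 library, and CXCL1, CXCL3, MMP9, LTB and BCL2A1 had at most 3 in any. At this depth no change of these genes was detectable. The targets NFKBIA and TNFAIP3 were, in contrast, measured with at least 177 counts in every library. CCL2, named after its values were seen, had 1 and 1 counts without and 9 and 8 with IFNγ. It did not pass the filter on low counts and was not tested.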

How the data were processed

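RNA-seq libraries of Caco-2 cells were compared, 2 per condition. The authors deposited raw read counts per Ensembl gene, with replicates not pooled. The submitters' processing notes name HISAT (0.5.1, as listed) and HTSeq 0.6.1p1. The genome build and strand setting are not given in the sources used here, so genes overlapping on opposite strands are uncertain. Symbols were paired with 96.5% of identifiers, and 8158 genes were at 0 throughout. Gene coordinates and lengths came from GENCODE 44 on GRCh37, not necessarily the annotation used for counting.

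Counts were fitted with edgeR 4.0.16 (quasi-likelihood test, TMM, default filter on low counts, trended dispersion, no block) in R 4.3.3. Standard errors were derived from each log2 fold change and its F statistic. Alternatives were other scalings and filters, DESeq2 1.42.0, a GC and length trend (loess, span 0.5), a replicate block, other limits and each library left out. The trend by canonical transcript and its length were added after the data were seen. The main fit, the replicate block, the trend by longest transcript and DESeq2 were run on simulated counts without a GC trend or replicate effect. The other alternatives were not. Members and lists were chosen with earlier results of these data known. The 10 members were named, with pathway genes past both limits, those of the IκB-like, kinase, non-canonical and negative regulator lists at an adjusted p under 0.05, and undetected genes with at most 3 counts per library.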

Additional observations from a re-analysis of the deposited data

How the results depend on the processing

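RELA, RELB and BCL3 stayed higher and TNFAIP3 lower at an adjusted p under 0.05 under every scaling, filter and tool run and without any 1 library, with ranges without 1 library of 0.75 to 0.84, 1.11 to 1.42, 0.998 to 1.08 and -0.98 to -0.87. The number past both limits depended on the fold limit. It was 1 in place of 2 with library size only and 0 with a test against the fold limit itself (glmTreat). It was 0 with the GC and length trend removed, with or without the replicate block, and 1 by canonical transcripts, with or without the block. It was 1 to 2 without 1 library. The 1 member lower at adjusted p only became 2 with the replicate block, 2 with canonical trend and block, and 1 to 2 without 1 library.

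With the trend removed NFKB1 took 0.23 (0.23 with the block), REL 0.0855 (0.0799) and NFKBIB -0.0645 (-0.0705), and by canonical transcripts NFKB1 took -0.44 (-0.44 with the block, where it passed with an adjusted p of 0.0349 in edgeR), REL 0.13 (0.13) and NFKBIB -0.0611 (-0.0684). The cause was not tested. Genes called lower among all were 652, but 316 and 295 with the trend removed by longest and canonical transcripts. Without 1 library they ranged from 554 to 1112, the highest without IFNγ replicate 1, and higher calls from 339 to 455. Pathway genes called lower were 2, but 1 with upper quartile scaling, DESeq2, at least 10 counts per library, or the canonical trend with or without the block, and 0 to 3 without 1 library. Pathway genes called higher were 10, but 9 with DESeq2, 12 with no filter on low counts and 13 with the canonical trend and block. The highest over the lowest level of unstimulated members was 9.64, 10.9 by longest and 13.6 by canonical transcript. Leaving out a library left 1 in its condition, assumed to vary like the 2 of the other condition.

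The labels share replicate numbers only. Across the tested genes, deviations from the condition mean correlated at r = 0.415 between the libraries numbered 1. With 2 libraries per condition, those numbered 2 give the same value by construction, so a pairing cannot be set from it. With the replicate block, calls were 492 higher and 896 lower, and REL (-0.48, adjusted p 0.0415) and NFKBIE (0.46, 0.0390) passed the adjusted limit in edgeR, as did TBK1 (-0.95, 0.0483) and TANK (-0.61, 0.0470). The 2 libraries per condition, and 51 counts for RELB in the shallowest library, limit the precision.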

Other observations

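TBK1, a kinase related to the IKK subunits, had 32.4 and 40.5 CPM in the unstimulated libraries and 26.7 and 11.1 CPM with IFNγ with a log2 fold change of -0.92 and an adjusted p of 0.108 (edgeR). TANK, an adaptor that binds TBK1, had 36.4 and 46.1 CPM without and 31.7 and 21.8 CPM with IFNγ (-0.61, adjusted p 0.0828). After removal of the GC and length trend by longest transcript, TBK1 was at -0.36 (adjusted p 0.449) and TANK at -0.18 (0.534). Like REL and NFKB1, both had their lowest value in replicate 2 of IFNγ.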
